A study of Mus musculus with 6 samples.

Results

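The levels of 35 genes of cell division were followed in mouse muscle RNA with 6 Agilent arrays of the whole genome, read in the single dye Cy3. The genes were given by symbol, and their members on the array were the non-control probes designed on a RefSeq transcript of one of them: 47 probes for 35 genes, among 20972 gene symbols carried by the array. Groups were MDX mice on JJ101, a bioceramic water (MDX_JJ101), MDX mice on tap water (MDX_tap), and wild-type C57BL/10 mice on tap water (B10_tap). Each had 2 arrays and 10 months on its water. MDX mice carry a mutation in the dystrophin gene Dmd, and both MDX groups share it; no C57BL/10 group on JJ101 was analysed here. The labels give neither the ages nor the sexes of the animals, nor whether the replicates came from separate mice, so p-values measure only the spread between these samples, which may be technical.

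A dividing cell passes through G1, copies its DNA in S phase and separates the copies in mitosis. D and E cyclins start the passage by freeing E2F transcription factors from the retinoblastoma protein, E2F factors switch on the replication genes, and CDK1 with cyclins A and B drives mitosis. Most fibres of adult muscle are non-dividing, so transcripts of this kind in whole muscle come largely from the smaller cells between the fibres, and in dystrophic muscle such cells include macrophages, fibroblasts and satellite cells. The CDK inhibitors p21 (Cdkn1a) and p27 (Cdkn1b) hold the cycle in check.

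A level is the log2 of a probe's signal after subtraction of the 75th percentile of its array; levels are comparable between arrays for one probe and not between probes. Detected spots (well above background) made up 43.8% and 42.5% of the 59305 spots in MDX_JJ101, 49.6% and 48.1% in MDX_tap, and 51.6% and 51.4% in B10_tap. A single slide held the 6 arrays. JJ101 cannot be told apart from the slide row, which the MDX_JJ101 arrays had to themselves, nor genotype from the slide column, which MDX_tap and B10_tap did not share. Dmd had levels of -1.50 and -1.74 in MDX_JJ101, -0.84 and -0.27 in MDX_tap, and 1.06 on both B10_tap arrays; where this probe lies relative to the mutation is not given in the sources used here. The label names gastrocnemius, a limb muscle. Of the genes taken to define heart muscle, Myh6 and Nppa were well above background on all 6 arrays and Myl7 on 1; of those taken to define skeletal muscle, Acta1 was on 6, Myh4 on 4 and Mylpf on 0. Myf5 and Myod1, which define muscle precursor cells, were on none, and Pax7, the satellite cell gene, was well above background on the 4 tap water arrays alone. Over the full lists, 9 of 11 heart genes and 5 of 11 skeletal muscle genes were well above background on all 6 arrays. Those of the heart list included Tnni3, Tnnt2, Mybpc3, Nkx2-5, Gata4 and Tbx5. Which muscle the RNA came from was not tested, and the tissue is therefore called muscle below.

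Genes of fast skeletal fibres set the MDX_JJ101 arrays apart. Myh4, a myosin heavy chain of fast fibres, read -5.52 and -5.42 in MDX_JJ101, where it was not well above background, 0.91 and 3.53 in MDX_tap, and 2.62 and 2.28 in B10_tap. Myh1, Myh2, Tnnt3, Tnni2, Actn3 and Pvalb were likewise lower on both MDX_JJ101 arrays than on all 4 tap water arrays, so that 7 of the 10 skeletal muscle genes detected on some array were lowest there, while Acta1, Ckm and Mybpc2 were highest there. These genes differed between the MDX_tap arrays as well: Tnni2, a fast troponin, read 0.45 and 0.67 in MDX_JJ101, 1.91 and 4.24 in MDX_tap, and 3.35 and 2.93 in B10_tap. Their part in the differences between MDX_JJ101 and the tap water groups below was not tested.

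Probes were counted as detected where the scanner software flagged them as well above background. A probe printed as several spots was counted where most of its spots on the array were flagged. Of the 35 genes, 28 were detected on all 6 arrays by the probe used, and 31 were detected on both arrays of at least 1 group and entered the tests. The number of genes detected by at least 1 probe was 29 and 28 on the MDX_JJ101 arrays, 31 and 31 on MDX_tap, and 30 and 31 on B10_tap. Top2a, Cdk1 and Bub1b were the 3 tested genes that were not detected throughout. Top2a and Bub1b entered the tests through MDX_tap alone and Cdk1 through the tap water groups, where they were high, so their differences from the dimmer groups were favoured by the filter and lend the counts below no support. Top2a, the topoisomerase that untangles replicated DNA, was detected on 0 MDX_JJ101 arrays, 2 MDX_tap arrays and 1 B10_tap array. Cdk1, the kinase that drives mitosis, was detected on 0 MDX_JJ101 arrays, 2 MDX_tap arrays and 2 B10_tap arrays. Bub1b, which encodes the checkpoint protein BUBR1, was detected on 1, 2 and 1 arrays of MDX_JJ101, MDX_tap and B10_tap.

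The remaining 4 genes were not tested. Ccne2 (cyclin E2), Aurkb (the kinase of the chromosomal passenger complex) and Bub1 (a spindle checkpoint kinase) were not well above background on any array, and Cdc6, a factor that loads the MCM helicase, was detected on B10_tap replicate 1 alone. Bub1 was printed as 10 spots per array. Of these, 1 and 2 were well above background on the MDX_JJ101 arrays, 5 and 2 on the MDX_tap arrays, and 0 and 1 on the B10_tap arrays. Bub1 was thus at the edge of detection, and the SD of its spots within an array lay between 0.41 and 1.47.

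**Figure D1:**
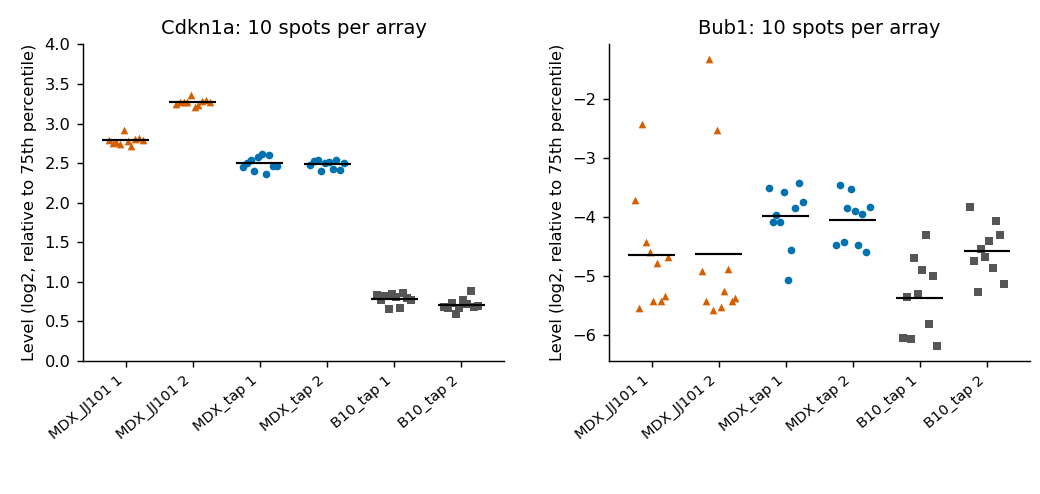
Levels of the individual spots of the 2 genes printed 10 times on each array, as log2 signal relative to the array's 75th percentile, with arrays along the x axis and a black bar at each array's mean. The Cdkn1a spots formed narrow bands (SD between 0.039 and 0.084 within an array), with the MDX_JJ101 and MDX_tap arrays above B10_tap, while the Bub1 spots scattered near background.

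The promoters of the genes that passed the test in MDX_JJ101 against MDX_tap, and of Cdkn1a, are shown because the results turn on these genes. Each sequence gives the 250 bases before the transcription start, from RefSeq on GRCm38.p6, read 5′ to 3′ on the gene's strand. Capitals mark matches, on either strand, to the CHR element of late cell cycle genes (TTTGAA or TTCGAA), the CCAAT box (CCAAT), or an E2F site (TTTCCCGC, TTTGGCGC, TTTCGCGC or TTTGCCGC). For Mcm4 no promoter is shown.

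Mki67, chr7:135716380-135716629, minus strand: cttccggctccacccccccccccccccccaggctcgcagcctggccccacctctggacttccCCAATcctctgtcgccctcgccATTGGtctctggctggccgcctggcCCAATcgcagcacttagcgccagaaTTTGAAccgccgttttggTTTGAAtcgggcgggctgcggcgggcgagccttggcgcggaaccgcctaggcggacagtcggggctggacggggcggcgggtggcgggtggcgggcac
Cdk1, chr10:69352913-69353162, minus strand: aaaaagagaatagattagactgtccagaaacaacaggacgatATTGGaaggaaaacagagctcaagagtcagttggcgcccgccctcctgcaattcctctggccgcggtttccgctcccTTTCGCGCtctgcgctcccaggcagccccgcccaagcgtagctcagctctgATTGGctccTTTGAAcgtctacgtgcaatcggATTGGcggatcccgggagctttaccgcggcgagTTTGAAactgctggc
Mcm3, chr1:20820313-20820562, minus strand: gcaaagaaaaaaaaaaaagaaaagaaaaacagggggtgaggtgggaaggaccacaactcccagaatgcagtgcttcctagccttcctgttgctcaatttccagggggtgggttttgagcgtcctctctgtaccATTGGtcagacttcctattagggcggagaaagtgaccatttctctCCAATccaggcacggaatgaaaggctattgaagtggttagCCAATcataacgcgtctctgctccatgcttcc
Cenpa, chr5:30666636-30666885, plus strand: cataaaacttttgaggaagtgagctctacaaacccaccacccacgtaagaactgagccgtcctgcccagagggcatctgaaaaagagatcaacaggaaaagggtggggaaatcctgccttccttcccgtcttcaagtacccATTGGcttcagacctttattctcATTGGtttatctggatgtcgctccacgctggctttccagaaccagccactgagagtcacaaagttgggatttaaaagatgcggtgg
Cenpe, chr3:135212313-135212562, plus strand: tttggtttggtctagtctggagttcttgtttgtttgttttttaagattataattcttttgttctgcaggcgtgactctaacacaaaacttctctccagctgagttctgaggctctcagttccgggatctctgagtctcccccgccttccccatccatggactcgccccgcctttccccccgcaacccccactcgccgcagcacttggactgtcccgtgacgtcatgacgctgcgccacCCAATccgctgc
Cdkn1a (first start), chr17:29090729-29090978, plus strand: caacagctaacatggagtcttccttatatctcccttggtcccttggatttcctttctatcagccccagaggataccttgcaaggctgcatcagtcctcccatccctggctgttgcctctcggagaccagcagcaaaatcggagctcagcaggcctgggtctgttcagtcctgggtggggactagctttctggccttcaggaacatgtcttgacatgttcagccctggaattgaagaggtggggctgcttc
Cdkn1a (second start), chr17:29093519-29093768, plus strand: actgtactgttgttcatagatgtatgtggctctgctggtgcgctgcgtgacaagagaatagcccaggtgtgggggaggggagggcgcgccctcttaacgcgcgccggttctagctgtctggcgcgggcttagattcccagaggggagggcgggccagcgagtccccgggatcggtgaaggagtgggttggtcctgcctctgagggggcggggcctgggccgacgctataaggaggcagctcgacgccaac

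In these stretches Mki67, the gene of the proliferation marker Ki-67, held 2 CHR matches and 3 CCAAT matches. Cdk1 held 2 CHR matches, 3 CCAAT matches and 1 E2F match. Neither Cdkn1a promoter held any of the marked letters. Over the whole windows of 300 bases, which run 50 bases past the start, 12 of 28 cell division genes with an entry held a CHR match. Counted by entry, as all promoters were, this was 12 of 31 (38.7%), against 19.2% of all 32851 promoters. CCAAT was found in 22 of 28 genes and 23 of 31 entries (74.2%), against 37.4% of all promoters. An E2F match was found in 6 of 28 genes and 6 of 31 entries (19.4%), against 2.26%. The GC box GGGCGG was not capitalised and can overlap an E2F match. It was found in 23 of 28 genes and 25 of 31 entries (80.6%), against 35.7%. A match describes the letters and does not show that a factor binds.

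On tap water, MDX muscle was set against wild-type muscle. No cell division gene passed the test: limma called 0 of 31 at an adjusted p under 0.05, against 0.024% of all 20869 genes and transcripts tested, or 5. At an unadjusted p under 0.05 stood 12 genes higher and 1 lower in MDX_tap, where the background was 8.64% higher and 12.4% lower. Both MDX_tap arrays lay above both B10_tap arrays for 22 of the 31 genes (background 24.4%) and below them for 3 (background 37.0%). The difference was positive for 26 of the 31 genes and for 41.6% of all genes, with medians of 0.37 and -0.06 log2. These genes were chosen with earlier results of these data known, so the side-by-side medians are a description.

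The comparison of MDX_JJ101 with MDX_tap asked what JJ101 changed in MDX mice. Mki67, Cdk1, Mcm3, Mcm4 and Cenpe were called lower in MDX_JJ101 by limma and Cenpa was called higher, so that 6 of 31 genes, or 19.4%, passed, against 36.1% of all genes. By direction, 16.1% of the cell division genes were called lower and 3.23% higher, where the background was 16.1% lower and 19.9% higher. The called share was thus below the background as a whole and at the background for lower calls. Both MDX_JJ101 arrays lay below both MDX_tap arrays for 15 genes (background 35.4%) and above them for 8 (background 37.3%). The median difference was -0.15 log2 over the 31 genes and 0.00086 over all genes.

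The lower and higher calls in this comparison depended on how arrays were scaled. Centring on each array's median moved the median of all genes to 0.23 log2 and gave 6 genes higher and 4 lower (background 27.3% and 9.09%). Scaling on the spike-in controls moved that median to -0.43 and gave 0 higher and 7 lower (background 0.388% and 17.8%). With spike-in scaling limma gave each of the 31 genes the same SE (0.40). Its p-values there rest on 1 common spread and not on each gene's own. With the slide column as a block, limma called 0 of the 31 genes and 0.0% of all genes (8857 of all genes at an unadjusted p under 0.05). That fit has fewer residual degrees of freedom than the main one, and its median over the 31 genes was unchanged at -0.15 log2. Leaving out MDX_tap replicate 1, MDX_tap replicate 2 or B10_tap replicate 2 also lost the calls. Such fits leave 1 array in a group, and these called fewer of all genes as well. With 1 array left out, the difference ranged from -0.91 to -0.74 for Mki67, -1.32 to -0.91 for Cdk1 and -0.69 to -0.33 for Mcm3. It ranged from -0.62 to -0.48 for Mcm4, -1.12 to -0.91 for Cenpe and 0.38 to 0.61 for Cenpa.

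The third comparison set MDX mice on JJ101 against wild-type mice on tap water, which differ in both genotype and water. Limma called 3 of 31 genes, or 9.68%, all higher in MDX_JJ101: Cdkn1a, Aurka and Ccnd3. The background was 33.6%, with 16.2% of all genes higher and 17.4% lower. Both MDX_JJ101 arrays lay above both B10_tap arrays for 11 genes (background 37.9%) and below them for 3 (background 37.3%). The difference was positive for 18 of 31 genes and for 49.5% of all genes, with medians of 0.068 and -0.0064 log2. Median centring moved the median of all genes to 0.39 log2 and gave 15 of the 31 genes higher and 0 lower (background 40.5% and 7.88%), while spike-in scaling moved it to -0.47 and gave 1 higher and 2 lower (background 0.503% and 20.9%). The comparisons share groups, so their counts are not independent.

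**Figure D2:**
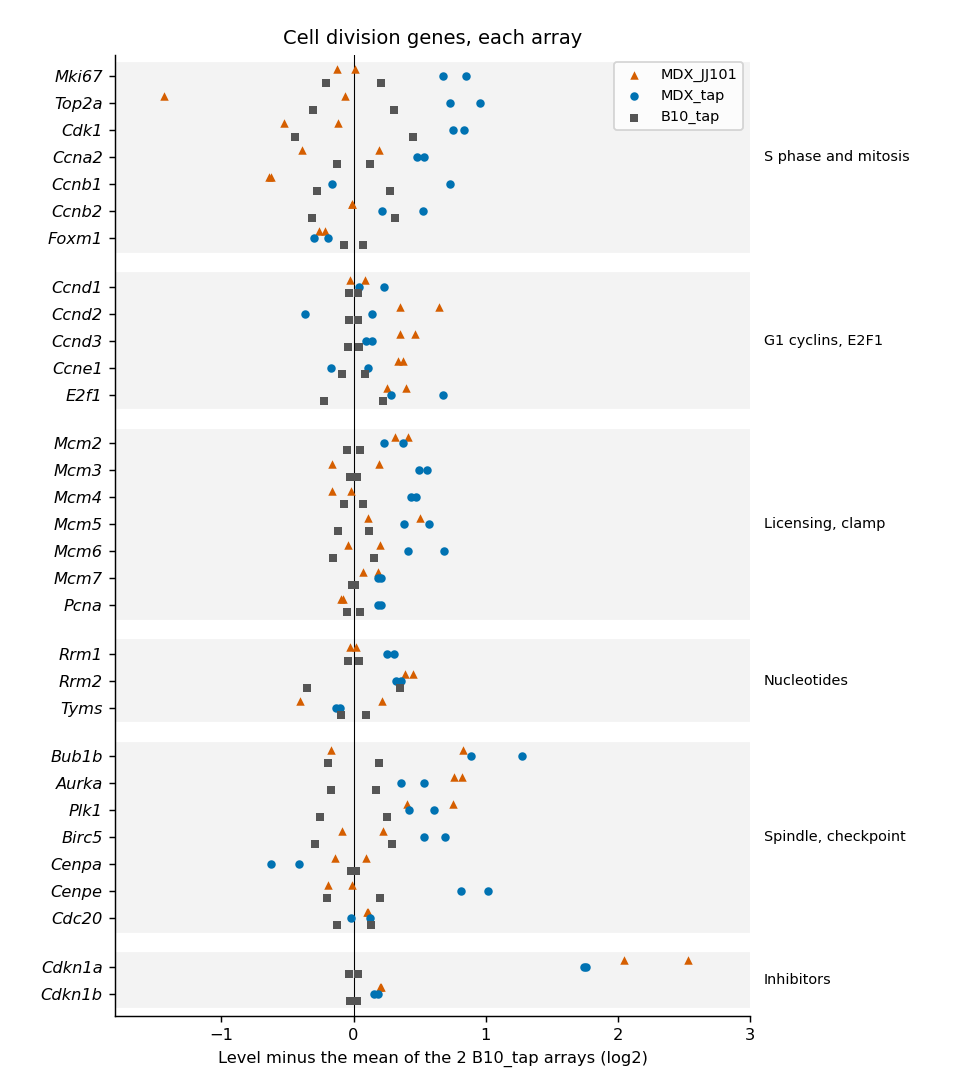
Level of each of the 31 tested genes on each array minus the mean of the 2 B10_tap arrays for that gene (x axis, log2), with genes down the y axis by role; triangles are MDX_JJ101, circles MDX_tap and squares B10_tap arrays. In most rows of the S phase, licensing and spindle groups the MDX_tap circles lie to the right of the B10_tap squares, as for 22 of all 31 genes, and Cdkn1a lies farthest right in both MDX groups.

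Among the regulators of S phase and mitosis, Mki67 and Cdk1 fell in MDX_JJ101 against MDX_tap, and the other 5 did not pass. Mki67 had levels of 0.34 and 0.20 in MDX_JJ101, 1.00 and 1.17 in MDX_tap, and 0.12 and 0.53 in B10_tap. The MDX_tap arrays were the highest, and the MDX_JJ101 and B10_tap arrays overlapped. Mki67 fell by 0.82 log2 (SE 0.17) in MDX_JJ101 against MDX_tap, 1.77-fold, at an adjusted p of 0.0224 by limma. Within slide column 3 the difference was -0.67 and within column 4 -0.98, and 12 of 17 alternatives kept the call. A second Mki67 probe read 0.24 and 0.18 in MDX_JJ101, 0.88 and 1.23 in MDX_tap, and 0.09 and 0.52 in B10_tap, the same order of groups. MDX_tap exceeded B10_tap by 0.76 log2 (SE 0.17) without passing (adjusted p = 0.127). In bulk RNA, fewer cells of a type and less RNA per cell cannot be told apart, here or for any gene below.

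Cdk1 had levels of -3.72 and -4.12 in MDX_JJ101, -2.77 and -2.85 in MDX_tap, and -4.05 and -3.15 in B10_tap. The MDX_tap arrays were again highest, and the MDX_JJ101 and B10_tap arrays overlapped. Since neither MDX_JJ101 array was well above background, Cdk1 was at least 1.42-fold lower there than in MDX_tap; the bound sets the MDX_tap mean against the lowest signal called well above background on the MDX_JJ101 arrays. Limma gave a difference of -1.11 log2 (SE 0.32, adjusted p = 0.0461), and 7 of 16 alternatives kept the call. With normexp and quantile normalization the difference was -0.26 (adjusted p = 0.0727). The 2 other Cdk1 probes were not well above background on any array.

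Top2a had levels of -3.83 and -5.21 in MDX_JJ101, -3.04 and -2.81 in MDX_tap, and -4.08 and -3.46 in B10_tap, again with MDX_tap highest. It was at least 1.31-fold lower in MDX_JJ101 than in MDX_tap by the same bound and missed the threshold; the fitted difference of -1.59 log2, against a group below background, was -0.31 with normexp and quantile normalization and -0.91 without MDX_JJ101 replicate 2. The cyclins of S phase and mitosis showed the same order with smaller gaps. Ccna2 (cyclin A2) read -1.05 and -1.64 in MDX_JJ101, -0.76 and -0.71 in MDX_tap, and -1.37 and -1.12 in B10_tap. Ccnb1 (cyclin B1) read -1.89 and -1.90 in MDX_JJ101, -0.53 and -1.42 in MDX_tap, and -1.54 and -0.98 in B10_tap. In both, the MDX_JJ101 arrays lay below the MDX_tap arrays, with differences of -0.61 (SE 0.22, adjusted p = 0.0805) for Ccna2 and -0.92 (SE 0.34, adjusted p = 0.0859) for Ccnb1. Single arrays set these sizes: Ccna2 was at -0.90 without MDX_JJ101 replicate 1, where it passed (adjusted p = 0.0204), and at -0.32 without MDX_JJ101 replicate 2, and Ccnb1 was at -0.47 without MDX_tap replicate 1 and at -1.37 without MDX_tap replicate 2. MDX_tap was above B10_tap without overlap for Ccna2 and overlapped it for Ccnb1.

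Ccnb2 (cyclin B2) read -0.70 on both MDX_JJ101 arrays, -0.16 and -0.48 in MDX_tap, and -1.01 and -0.37 in B10_tap, so that only MDX_JJ101 and MDX_tap were separate (-0.38, SE 0.24, adjusted p = 0.25). Foxm1, whose product switches on the mitotic genes, did not follow the cyclins. Its levels were -2.72 and -2.76 in MDX_JJ101, -2.80 and -2.69 in MDX_tap, and -2.43 and -2.57 in B10_tap, with both MDX groups below B10_tap and overlapping each other. Of the 7 genes of this group, 6 had a positive difference in MDX_tap against B10_tap (median 0.51 log2), where the background was 41.6%. In MDX_JJ101 against MDX_tap 6 had a negative difference (median -0.82). Both MDX_JJ101 arrays lay below both MDX_tap arrays for 6 (background 35.4%). These counts and medians include Top2a, whose differences the filter favoured in both comparisons. They also include Cdk1, whose fall in MDX_JJ101 against MDX_tap it favoured.

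The G1 cyclins behaved otherwise: Ccnd3, a D cyclin that is a partner of CDK4 and CDK6, was higher in MDX_JJ101 than in B10_tap, and no member of the group passed in the other comparisons. Ccnd3 read 5.11 and 5.23 in MDX_JJ101, 4.90 and 4.86 in MDX_tap, and 4.73 and 4.80 in B10_tap, with no overlap between any of the groups. It exceeded B10_tap by 0.41 log2 in MDX_JJ101 (SE 0.10, adjusted p = 0.0349 by limma, 1.33-fold), a call that 6 of 16 alternatives kept and that turned to -0.052 with spike-in scaling. Its other probe read 4.08 and 4.22 in MDX_JJ101, 3.59 and 3.50 in MDX_tap, and 3.21 and 3.43 in B10_tap, in the same order.

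Ccnd2, another D cyclin, read 3.77 and 4.07 in MDX_JJ101, 3.56 and 3.05 in MDX_tap, and 3.38 and 3.45 in B10_tap. The MDX_JJ101 arrays were above all others, by 0.61 log2 over MDX_tap (SE 0.20, adjusted p = 0.0681) and 0.50 over B10_tap (adjusted p = 0.113). Ccne1 (cyclin E1) read -0.20 and -0.25 in MDX_JJ101, -0.47 and -0.75 in MDX_tap, and -0.67 and -0.49 in B10_tap, also with MDX_JJ101 above all others and not past the threshold (adjusted p = 0.0799 against MDX_tap). Ccnd1 lay between 3.59 and 3.86 on all 6 arrays. E2f1, the transcription factor that D and E cyclins release, read -1.31 and -1.46 in MDX_JJ101, -1.04 and -1.43 in MDX_tap, and -1.93 and -1.49 in B10_tap; MDX_tap lay above B10_tap by 0.48 log2 (SE 0.21, adjusted p = 0.27).

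The MCM2 to MCM7 proteins form the ring helicase that licenses replication origins, and 2 of its genes, Mcm3 and Mcm4, fell in MDX_JJ101 against MDX_tap. Mcm4 read 1.26 and 1.40 in MDX_JJ101, 1.90 and 1.86 in MDX_tap, and 1.49 and 1.35 in B10_tap. Mcm3 read 1.05 and 0.69 in MDX_JJ101, 1.41 and 1.35 in MDX_tap, and 0.82 and 0.88 in B10_tap. In both genes the MDX_tap arrays stood above the others, and MDX_JJ101 and B10_tap overlapped. Mcm4 fell by 0.55 log2 (SE 0.11, adjusted p = 0.0208 by limma) and Mcm3 by 0.51 (SE 0.15, adjusted p = 0.0462). The calls held in 9 of 17 alternatives for Mcm4 and 5 of 17 for Mcm3; within slide columns 3 and 4 the difference was -0.64 and -0.46 for Mcm4 and -0.36 and -0.66 for Mcm3.

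Mcm6 read 2.80 and 2.56 in MDX_JJ101, 3.28 and 3.01 in MDX_tap, and 2.44 and 2.75 in B10_tap, the same pattern, with a difference of -0.47 (SE 0.17, adjusted p = 0.0876) between the MDX groups. Mcm2 and Mcm5 departed from it, since MDX_JJ101 overlapped MDX_tap in both. Mcm2 read -0.49 and -0.59 in MDX_JJ101, -0.67 and -0.53 in MDX_tap, and -0.95 and -0.85 in B10_tap, so both MDX groups were above B10_tap. Mcm5 read -0.26 and -0.66 in MDX_JJ101, -0.19 and -0.39 in MDX_tap, and -0.88 and -0.65 in B10_tap. Subunits of 1 helicase thus did not share 1 order of groups, though the differences between subunits were not tested. Mcm7 read 1.49 and 1.61 in MDX_JJ101, 1.61 and 1.63 in MDX_tap, and 1.43 and 1.41 in B10_tap.

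Pcna, the sliding clamp of the replicative polymerases, read 3.12 and 3.11 in MDX_JJ101, 3.41 and 3.39 in MDX_tap, and 3.15 and 3.26 in B10_tap, again with MDX_tap above both other groups. Every one of the 7 tested genes of licensing and the clamp had both MDX_tap arrays above both B10_tap arrays (background 24.4%). Their differences ran from 0.20 to 0.55 log2, with none past the threshold. MDX_JJ101 lay below MDX_tap without overlap in 5 of these 7 (background 35.4%).

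Ribonucleotide reductase makes the deoxynucleotides for replication, and its large subunit gene Rrm1 read 0.97 and 1.02 in MDX_JJ101, 1.25 and 1.30 in MDX_tap, and 1.04 and 0.96 in B10_tap, with MDX_tap highest. The small subunit gene Rrm2 read 0.45 and 0.51 in MDX_JJ101, 0.42 and 0.39 in MDX_tap, and -0.29 and 0.41 in B10_tap. B10_tap replicate 1 alone set Rrm2 apart: MDX_tap against B10_tap was 0.34 with all arrays and -0.011 without that one. Tyms, the thymidylate synthase gene, overlapped in all but 1 of the comparisons, at -2.17 and -2.79 in MDX_JJ101, -2.49 and -2.52 in MDX_tap, and -2.48 and -2.29 in B10_tap.

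Among the spindle, kinetochore and checkpoint genes, Cenpe fell and Cenpa rose in MDX_JJ101 against MDX_tap. Cenpe, the kinesin that moves chromosomes to the spindle equator, read -1.67 and -1.85 in MDX_JJ101, -0.85 and -0.64 in MDX_tap, and -1.86 and -1.46 in B10_tap. Its MDX_tap arrays were the highest, and MDX_JJ101 and B10_tap overlapped. Cenpe fell by 1.02 log2 (SE 0.17), 2.02-fold, at an adjusted p of 0.0157 by limma; 12 of 17 alternatives kept the call. The difference was -0.82 in slide column 3 and -1.21 in column 4. Against B10_tap, MDX_tap was 0.91 higher (SE 0.17, adjusted p = 0.108).

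Cenpa, the histone H3 variant that marks centromeres, ran the other way: it read 2.69 and 2.45 in MDX_JJ101, 1.96 and 2.18 in MDX_tap, and 2.57 and 2.61 in B10_tap. The MDX_tap arrays were the lowest. Cenpa rose by 0.50 log2 in MDX_JJ101 against MDX_tap (SE 0.13, adjusted p = 0.0405 by limma), a call that 4 of 17 alternatives kept and whose size was 0.063 with spike-in scaling. In MDX_tap against B10_tap its difference was -0.52 (SE 0.13, adjusted p = 0.147), the only negative one among the 13 genes of that comparison at an unadjusted p under 0.05.

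Aurka, the kinase of the spindle poles, was higher in MDX_JJ101 than in B10_tap. It read -0.96 and -0.91 in MDX_JJ101, -1.36 and -1.19 in MDX_tap, and -1.89 and -1.55 in B10_tap, 3 groups without overlap. The difference between MDX_JJ101 and B10_tap was 0.79 log2 (SE 0.15, adjusted p = 0.0200 by limma, 1.73-fold), and 12 of 16 alternatives kept it. Without MDX_JJ101 replicate 2, B10_tap replicate 1 or B10_tap replicate 2, and with spike-in scaling (0.33), it did not pass. Plk1, another mitotic kinase, read -1.03 and -1.37 in MDX_JJ101, -1.17 and -1.36 in MDX_tap, and -2.03 and -1.53 in B10_tap. Both MDX groups were above B10_tap and overlapped each other, by 0.58 in MDX_JJ101 (SE 0.22, adjusted p = 0.0923) and 0.51 in MDX_tap (SE 0.22, adjusted p = 0.257).

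Bub1b read -3.33 and -4.33 in MDX_JJ101, -2.89 and -3.27 in MDX_tap, and -4.36 and -3.97 in B10_tap. MDX_tap was highest without passing the threshold, with 1 array of each other group below background; its difference from B10_tap was 1.08 log2, and 0.25 with normexp and quantile normalization. The MDX_JJ101 arrays lay far apart, on either side of B10_tap replicate 2. Birc5, which encodes the passenger complex protein survivin, read 0.30 and -0.02 in MDX_JJ101, 0.76 and 0.60 in MDX_tap, and -0.22 and 0.36 in B10_tap by its brightest probe, with MDX_tap again highest. A second Birc5 probe read -2.86 and -3.74 in MDX_JJ101, -2.45 and -2.76 in MDX_tap, and -3.37 and -3.13 in B10_tap. It was well above background on all arrays but MDX_JJ101 replicate 2. The weakest Birc5 probe was detected on the 2 MDX_tap arrays alone, at -3.30 and -3.15. Cdc20, the activator of the anaphase-promoting complex, lay between -0.19 and 0.06 on all arrays.

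**Figure D3:**
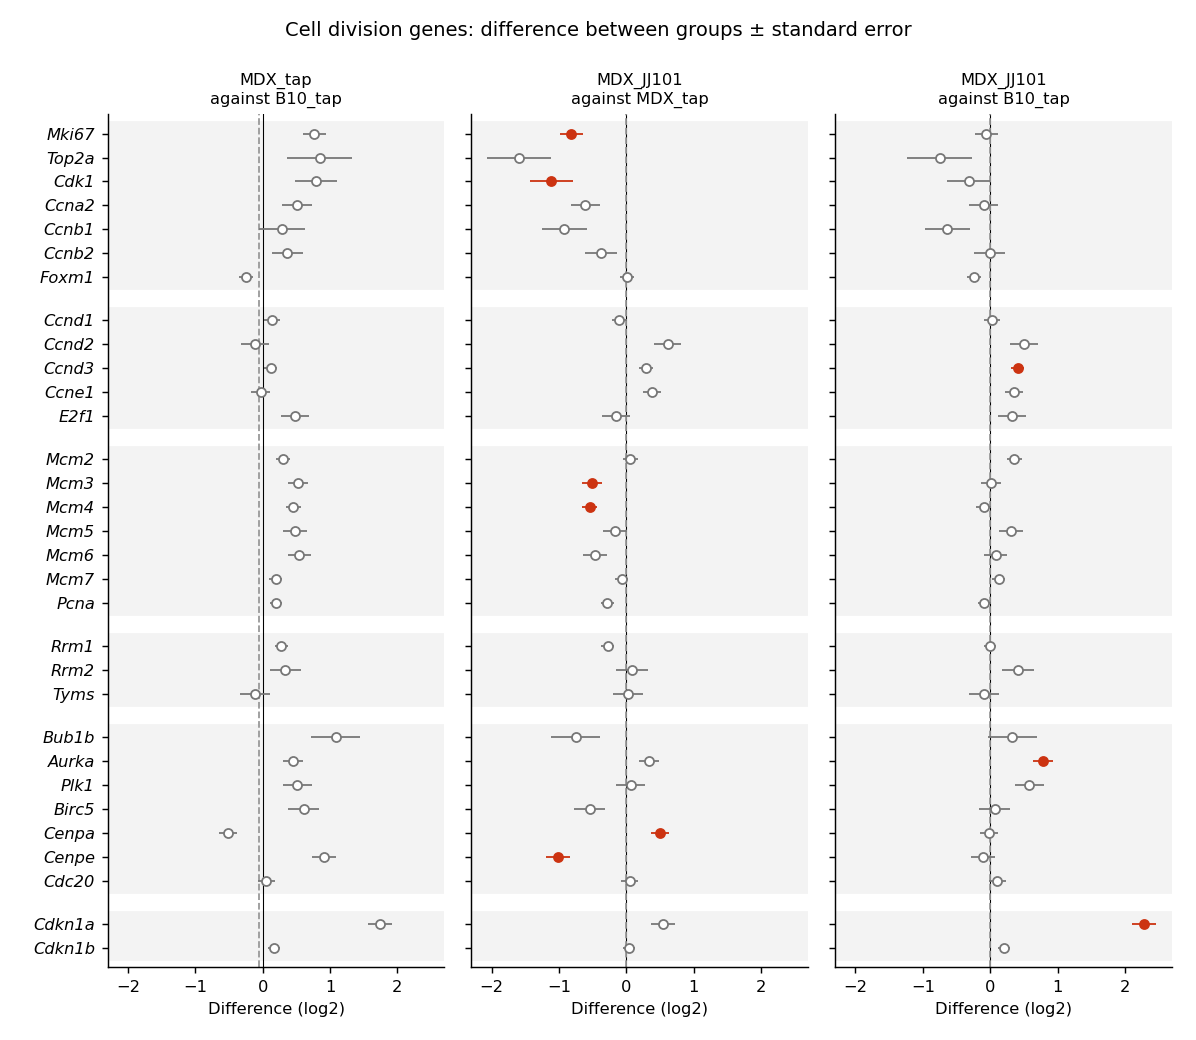
Difference between groups (x axis, log2) with its standard error from limma for each of the 31 tested genes (y axis, by role), in 3 panels by comparison; filled red points passed an adjusted p of 0.05, open grey points did not, and the dashed line is the median of all genes. No gene passed in MDX_tap against B10_tap, 6 did in MDX_JJ101 against MDX_tap and 3 in MDX_JJ101 against B10_tap, with Cdkn1a at 2.29 the farthest from 0.

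The CDK inhibitor p21, encoded by Cdkn1a, differed most: it was higher in MDX_JJ101 than in B10_tap. Its main probe read 2.79 and 3.27 in MDX_JJ101, 2.50 and 2.48 in MDX_tap, and 0.78 and 0.71 in B10_tap. No arrays of different groups overlapped. MDX_JJ101 exceeded B10_tap by 2.29 log2 (SE 0.18), 4.88-fold, at an adjusted p of 0.00646 by limma. All 10 alternatives other than leaving out 1 array kept the call. The size ranged from 0.98 with the mean over the 2 Cdkn1a probes to 2.69 with median centring. With 1 array left out it ranged from 2.04 to 2.53.

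MDX_tap exceeded B10_tap by 1.75 log2 in Cdkn1a (SE 0.18, 3.36-fold) with an adjusted p of 0.0595, which missed the threshold. Of the 10 alternatives other than leaving out 1 array, 6 passed it. The smallest adjusted p by limma, 0.00183, came with spike-in scaling and its common spread. MDX_JJ101 exceeded MDX_tap by 0.54 (SE 0.18, adjusted p = 0.0658), 0.29 in slide column 3 and 0.79 in column 4. Without MDX_JJ101 replicate 1 that difference was 0.78 and passed (adjusted p = 0.0161); without MDX_JJ101 replicate 2 it was 0.30 and did not.

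The second Cdkn1a probe, designed on another RefSeq transcript of the gene, did not show this order. It read -3.84 and -3.83 in MDX_JJ101, -2.73 and -3.35 in MDX_tap, and -3.71 and -3.33 in B10_tap, and was not well above background in MDX_JJ101. MDX_tap and B10_tap overlapped in it. Both MDX_JJ101 arrays lay below both B10_tap arrays in it, against the direction of the main probe. Averaging the 2 probes gave -0.13 for MDX_JJ101 against MDX_tap, 1.11 for MDX_tap against B10_tap and 0.98 for MDX_JJ101 against B10_tap. Cdkn1b, the gene of p27, read 2.78 and 2.77 in MDX_JJ101, 2.76 and 2.73 in MDX_tap, and 2.55 and 2.60 in B10_tap; its MDX arrays were above B10_tap by less than the 0.3 log2 units used here to name a difference.

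**Figure D4:**
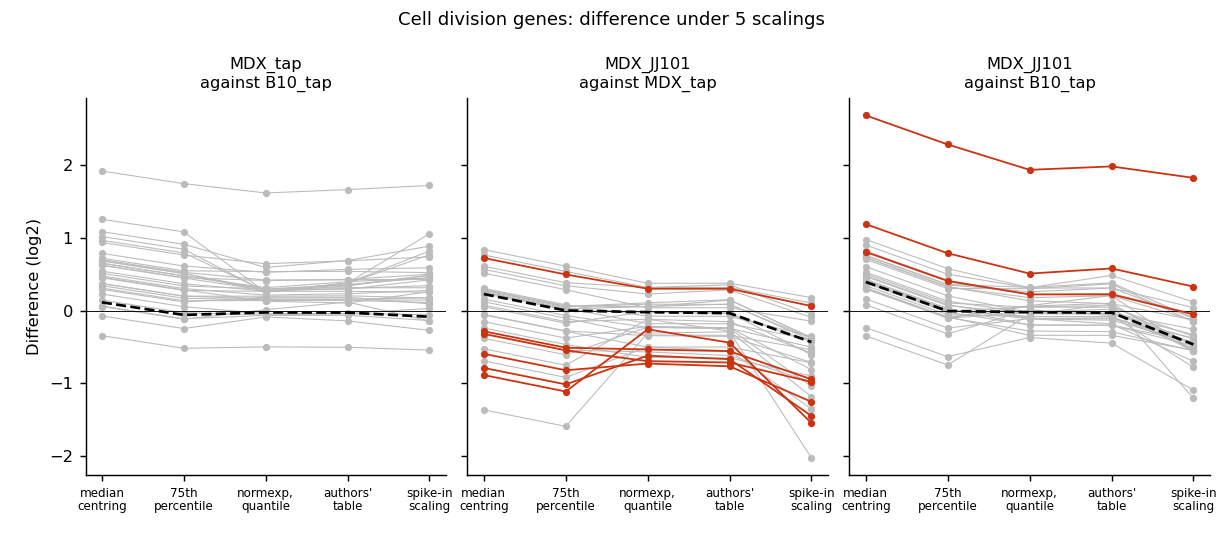
Difference between groups (y axis, log2) for the 31 tested genes (1 line each) under 5 ways of scaling the arrays (x axis), in 3 panels by comparison; red lines are genes that passed with the 75th percentile, grey lines the others, and the dashed line is the median of all genes. In MDX_JJ101 against MDX_tap the dashed line runs from 0.23 with median centring to -0.43 with spike-in scaling, and the genes move with it.

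Of 142 further genes of the pathway in 5 lists, 125 were tested. None passed in MDX_tap against B10_tap by limma, with 29 at an unadjusted p under 0.05, or 23.2%, against 21.0% of all genes. In MDX_JJ101 against MDX_tap 14 were called higher and 23 lower, 29.6% together against the background of 36.1%, and in MDX_JJ101 against B10_tap 15 higher and 10 lower, 20.0% against 33.6%. In MDX_tap against B10_tap the list of other chromosome and spindle genes had the highest median, 0.44 log2 over 32 tested genes. Both MDX_tap arrays lay above both B10_tap arrays for 19 of them (background 24.4%) and below for 1 (background 37.0%). In the same comparison the medians of the replication, G1 and Rb-E2F, CDK inhibitor, and p53 target lists were 0.025, -0.010, -0.084 and 0.17.

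In MDX_JJ101 against MDX_tap, 10 of 32 chromosome and spindle genes were called lower and 2 higher, a share of 37.5% against the background of 36.1%. By direction the background was 16.1% lower and 19.9% higher. Both MDX_JJ101 arrays lay below both MDX_tap arrays for 24 of the 32 (background 35.4%) and above them for 3 (background 37.3%). The median difference of this list was -0.41 log2. These counts include Ndc80, whose fall the filter favoured. Ndc80, a kinetochore gene among the lower calls, had levels of -5.41 and -5.12 in MDX_JJ101 and -3.12 and -3.49 in MDX_tap; it entered the test through MDX_tap alone and was not well above background in MDX_JJ101, so that all the data give is that it was at least 1.01-fold lower. Ncapd2, a condensin gene, rose by 0.76 (SE 0.093, adjusted p = 0.0128). Of 40 replication genes 4 rose, among them the polymerase delta subunit gene Pold2 (1.14, SE 0.14) and Rpa2 of the single-strand binding complex (0.63, SE 0.11), and 7 fell. Of 26 genes of G1 and Rb-E2F control 4 rose and 3 fell: Fzr1, an activator of the anaphase-promoting complex in G1, rose by 1.07 (SE 0.12) and the retinoblastoma relative Rbl1 fell by 0.91 (SE 0.15). The called shares were 27.5% for the replication list and 26.9% for the G1 and Rb-E2F list, both below the background of 36.1%.

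Of the 6 other CDK inhibitors, Cdkn2d rose by 0.49 (SE 0.11) and Cdkn2c fell by 0.42 (SE 0.11) in MDX_JJ101 against MDX_tap, and the other 4 did not pass. Each of these calls held in 6 of 17 alternatives and in none of the 6 fits with 1 array left out. Of 21 p53 target and growth arrest genes 3 rose and 2 fell, 23.8% against the background of 36.1%, and the 2 of 6 CDK inhibitors make 33.3%. Gadd45b, a growth arrest gene, rose by 0.59 (SE 0.15). With spike-in scaling none of the named genes that rose passed in this comparison: Pold2 was at 0.70, Fzr1 at 0.63, Ncapd2 at 0.33, Rpa2 at 0.19, Gadd45b at 0.15 and Cdkn2d at 0.051. Pmaip1, which encodes the cell death protein NOXA, read -3.60 and -3.65 in MDX_JJ101, not well above background, and -1.47 and -2.00 in MDX_tap. It entered the test through the tap water groups alone, so the filter favoured its call among those that fell. What the data give is that Pmaip1 was at least 2.98-fold lower in MDX_JJ101 than in MDX_tap.

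In MDX_JJ101 against B10_tap, 6 of the 21 p53 target and growth arrest genes rose and 1 fell, 33.3% against the background of 33.6%. Cdkn1a is itself a target of p53. Gdf15, a stress-induced hormone gene of that list, read 2.43 and 2.05 in MDX_JJ101, 1.84 and 0.70 in MDX_tap, and -0.75 and 0.06 in B10_tap, and rose by 2.58 in MDX_JJ101 against B10_tap (SE 0.46, adjusted p = 0.0175). Gadd45b rose by 1.17 (SE 0.15, adjusted p = 0.0111). Cdkn1c, the gene of the CDK inhibitor p57, fell by 1.07 (SE 0.15, adjusted p = 0.0123). Hmmr, a spindle gene, fell by 1.29 (SE 0.24), E2f7, a repressor of E2F targets, by 0.58 (SE 0.12), and Ncapd2, Fzr1 and Pold2 rose by 0.72, 0.85 and 1.15. With spike-in scaling the rises of Gadd45b (0.71), Ncapd2 (0.26), Fzr1 (0.39) and Pold2 (0.69) did not pass. Dbf4, the activator of the replication kinase CDC7, was also called lower, but it was well above background in B10_tap alone, through which it entered the test, and its level there did not exceed the lowest signal detected on the MDX_JJ101 arrays, so no size is given.

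Marker genes of other cell types moved with the groups too. The summed level of 6 fibroblast genes, all well above background on the 6 arrays, was 7.92 to 8.49 in MDX_JJ101, 9.36 to 9.47 in MDX_tap and 8.75 to 8.82 in B10_tap. That of 6 endothelial genes, likewise all detected, was 5.31 to 5.52 in MDX_JJ101, 6.06 to 6.09 in MDX_tap and 5.92 to 6.01 in B10_tap. The 8 macrophage genes on the array, again all detected, summed to 6.45 to 6.62 in MDX_JJ101, 6.80 to 7.10 in MDX_tap and 6.39 to 6.48 in B10_tap. All 3 sums were highest in MDX_tap, as were Mki67, Cdk1, Mcm3, Mcm4 and Cenpe. Gene by gene, both MDX_tap arrays were above all others for 5 of the 6 fibroblast genes and 6 of the 8 macrophage genes, with Itgam lowest in MDX_tap. The endothelial sum followed Vwf, the 1 gene of its 6 that was highest in MDX_tap, while Pecam1, Cdh5 and Kdr were highest in B10_tap and 4 of the 6 lowest in MDX_JJ101. The part of these genes in the differences of the cell division genes was not tested.

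Mast cell genes, 5 of 6 detected on all arrays, summed to 1.12 to 1.55 in MDX_JJ101, 1.87 to 1.96 in MDX_tap and 0.74 to 0.91 in B10_tap. T cell genes, 3 of 6 detected on all arrays and Cd8a on none, summed to 2.29 to 2.41 in MDX_JJ101, 2.66 to 2.72 in MDX_tap and 2.73 to 2.74 in B10_tap. B cell genes, 1 of 5 detected on all arrays, summed to -0.88 to -0.56 in MDX_JJ101, 0.014 to 0.72 in MDX_tap and 0.29 to 0.46 in B10_tap. The T and B cell sums were thus lowest in MDX_JJ101. Neutrophil genes, 3 of 5 detected on all arrays and Mmp9 on none, summed to 5.34 to 5.44 in MDX_JJ101, 5.74 to 5.81 in MDX_tap and 5.86 to 5.99 in B10_tap. That sum is nearly Csf3r alone (5.30 and 5.25 in MDX_JJ101, 5.54 and 5.75 in MDX_tap, and 5.92 and 5.84 in B10_tap), whereas S100a9 read 1.63 and 1.07 in MDX_JJ101, 2.44 and 0.91 in MDX_tap, and 1.15 and -0.43 in B10_tap.

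Of 8 satellite cell and myoblast genes 1 was detected on all arrays and 5 on none, with sums of 8.69 to 8.72 in MDX_JJ101, 8.11 to 8.39 in MDX_tap and 8.28 to 8.39 in B10_tap. That sum is nearly Myh8 alone (8.72 and 8.69 in MDX_JJ101, 8.10 and 8.38 in MDX_tap, and 8.39 and 8.28 in B10_tap). Pax7 itself read -4.36 and -5.14 in MDX_JJ101, -3.16 and -3.19 in MDX_tap, and -2.50 and -2.45 in B10_tap, so its order of groups was not that of Mki67. Of 11 heart genes 9 were detected on all arrays and of 11 skeletal muscle genes 5. Their sums were 12.2 on both MDX_JJ101 arrays, 11.8 to 11.9 in MDX_tap and 11.8 in B10_tap for heart, and 8.04 to 8.14 in MDX_JJ101, 7.24 to 7.27 in MDX_tap and 7.26 to 7.29 in B10_tap for skeletal muscle. The skeletal muscle sum is carried by Ckm and Acta1, the brightest of its genes, and runs against the 7 genes of the list that were lowest in MDX_JJ101; of the 11 heart genes 6 were highest and 0 lowest there. The part of these lists in the results was not tested.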

How the data were processed

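The intensity values deposited by the authors came from Agilent Feature Extraction 11.5.1.1, per the submitters' processing notes; per the file headers the processed signal is background-subtracted. The deposited 0 or 1 flags mark outlier spots and those well above background. The authors' deposited series table holds log2 values with the rank order of the median spot signal, and served as an alternative.

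The main values were log2 of the processed signal minus each array's 75th percentile over 59305 non-control spots. Outlier spots were dropped and the spots of a probe averaged. A probe was kept where some group had it well above background on both of its arrays, and the probe with the highest mean stood for a gene, giving 20869 genes and transcripts. Symbols came from RefSeq accessions (GRCm38.p6, names and promoters alone). A limma model (version 3.58.1, R 4.3.3) covered the 3 groups (two-sided, 3 residual and 2.21 prior degrees of freedom, Benjamini-Hochberg over all genes, threshold 0.05); the steps were tested on simulated data. A fold against a group below background sets the brighter mean against the mean, per array, of the lowest detected signal or the probe's own if higher. The number of arrays limits the precision, and signal over background how dim a probe could be followed.

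Members, gene lists and alternatives were chosen with earlier results of these data known. All 35 members are described; from each further list the text names the 2 called genes with the smallest p per comparison. Differences are printed for members that passed or differed by at least 0.3 log2. The planned normexp correction used the median spot signal in place of the mean signal, with an offset of 50. Other alternatives were the authors' table, median centring, spike-in scaling, the filter on dim probes, the probe rule, the groups fitted, replicate or slide column as a block, and each array left out.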

Additional observations from a re-analysis of the deposited data

How the results depend on the processing

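All 3 comparisons rest on 2 arrays a group, on 1 slide, and signals near background limit Top2a, Cdk1, Bub1b, Ndc80, Pmaip1 and Dbf4. Of the called members, Cdkn1a in MDX_JJ101 against B10_tap passed under all 16 alternatives, and none of the 6 calls in MDX_JJ101 against MDX_tap passed under all of theirs. Where a call was lost, the cause was not tested unless stated.

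In MDX_tap against B10_tap, limma called 394 genes with normexp and quantile normalization, 337 with the authors' table, 285 with median centring, 415 with spike-in scaling, 0 without a filter (5113 at an unadjusted p under 0.05), 151 with detection on all 6 arrays required, 15 with every probe kept and 125 with only the 2 groups compared. Leaving out 1 array gave between 17 and 187. Members called higher, with the share of all genes in parentheses, numbered 3 with normexp (1.4%), 2 with the authors' table (1.24%), 2 with median centring (1.16%), and 1 each with spike-in scaling (0.982%), with detection on all arrays (0.595%) and with only 2 groups (0.431%); leaving out 1 array gave 0 to 1 (0.0232% to 0.415%). Rrm2 ranged from -0.011 to 0.69 with 1 array left out.

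In MDX_JJ101 against MDX_tap, all genes called numbered 3794 with spike-in scaling, 13640 without a filter (more genes tested), 3247 with only 2 groups (fewer arrays) and 0 with slide column as a block (8857 at an unadjusted p under 0.05, smallest adjusted p = 0.0578). Leaving out 1 array gave between 0 (without B10_tap replicate 2) and 7978. Members called higher numbered 0 with normexp (17.4%), 6 with median centring (27.3%), 0 with spike-in scaling (0.388%), 2 without a filter (28.4%), 3 with detection on all arrays (28.1%), 2 with every probe (20.6%), 2 with the mean over probes (19.3%), 0 with only 2 groups (8.42%) and 0 with slide column as a block (0.0%). Members called lower numbered 9 with normexp (18.4%), 9 with the authors' table (19.0%), 3 with only 2 groups (7.14%) and 0 with slide column as a block (0.0%). Leaving out 1 array gave 0 to 1 higher (0.0% to 19.7%) and 0 to 7 lower (0.0% to 17.9%). Ccne1 turned to -0.050 and Aurka to -0.093 with spike-in scaling, and Cdkn1a to -0.13 with the mean over its probes, whose second probe was dim.

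In MDX_JJ101 against B10_tap, all genes called numbered 4458 with spike-in scaling and 14092 without a filter, and between 412 (without B10_tap replicate 2) and 7206 with 1 array left out. Members called higher numbered 15 with median centring (40.5%), 1 with spike-in scaling (0.503%) and 5 without a filter (27.9%); members called lower numbered 1 with normexp (16.4%), 1 with the authors' table (18.1%) and 2 with spike-in scaling (20.9%). Leaving out 1 array gave 1 to 3 higher (0.134% to 16.1%) and 0 to 1 lower (1.77% to 17.9%). With spike-in scaling, which moved the median of all genes to -0.47, values turned to -0.052 for Ccnd3, -0.10 for Ccne1, -0.13 for E2f1, -0.099 for Mcm2, -0.16 for Mcm5, -0.041 for Rrm2 and -0.13 for Bub1b. Top2a turned to 0.087 with the authors' table, and Cdk1 to 0.010 with normexp and 0.080 with median centring. With 1 array left out, Cdk1 ranged from -0.77 to 0.13 and Bub1b from -0.17 to 0.83.

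The labels number the replicates without saying whether the numbers pair samples. The correlation of replicate differences was -0.064 between MDX_JJ101 and B10_tap, and -0.031 between MDX_tap and B10_tap. Between MDX_JJ101 and MDX_tap, whose arrays of the same replicate number shared a slide column, it was 0.16. Low correlations cannot show that samples were unpaired. With the replicate number as a block, 4, 6517 and 5863 genes were called in the comparisons in the order above, with 0 members in MDX_tap against B10_tap, 0 higher and 3 lower in MDX_JJ101 against MDX_tap, and 2 higher in MDX_JJ101 against B10_tap.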
